A study of Caenorhabditis elegans with 6 samples.

Results

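The dhs genes of Caenorhabditis elegans encode short-chain dehydrogenases, and 29 of them were compared between whole animals at day 10 and larvae of the L4 stage. Members were the features whose WormBase gene identifier carries a symbol made of dhs and a number in the WBcel235 annotation of Ensembl release 115; 1 further gene with such a symbol is not analysed here. They are 29 of the 46940 features in the count table, and all 29 are annotated as protein-coding. Both ages were wild-type N2 worms, grown at 20 °C on nematode growth medium agar without any treatment, and each age had 3 libraries made from RNA of the whole body. Nothing in the labels states from which event day 10 was counted, whether progeny were removed, or whether the 3 samples of an age were grown as independent cultures. The p-values therefore refer to the spread among these 6 samples alone, part or all of which may be technical. Adult animals before day 10 were not part of the series, so the change from larva to adult and the change with adult age cannot be told apart.

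Short-chain dehydrogenases are a very large family of oxidoreductases found in all kingdoms of life. They share a fold that binds NAD or NADP and, mostly, a catalytic tyrosine and lysine, and they oxidise or reduce alcohols and carbonyl groups on steroids, retinoids, fatty acids, sugars and foreign compounds. In the worm, members of the family work in steroid hormone synthesis, in fat storage and in the clearance of reactive carbonyls, while the substrates of many dhs enzymes are not known.

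The libraries held 23257607 to 25616846 counts at day 10 and 19576201 to 23972794 in L4. Levels are given as CPM, which are counts relative to the library total after TMM scaling, a correction for differences in composition. Day 10 replicate 3 stood farther from the other day 10 libraries (chi-square of 42.0 and 26.6 per degree of freedom over genes) than these did from each other (9.43), and results that rest on it are given without it. Markers of intestine, hypodermis, body-wall muscle, neurons, sperm, germ line and embryo were detected at both ages. The summed level of 8 body-wall muscle markers was 16499 to 18016 CPM in L4 and 848 to 906 CPM at day 10, that of 10 intestine markers 6045 to 6296 and 846 to 1294 CPM, and that of 9 sperm markers 684 to 698 and 14.4 to 27.1 CPM. For 8 genes listed for the hypodermis it was 3491 to 3807 CPM in L4 and 1960.4 to 2139 CPM at day 10. Most of the day 10 sum was the tubulin gene tbb-2, which rose from 1280 ± 34.3 to 1810 ± 89.3 CPM (mean ± SD, n = 3). Of the others, lin-26 rose, nhr-23 was not called and 5 fell, among them bli-1 from 1229 ± 109 to 0.228 ± 0.0998 CPM. For 8 neuron markers the sum was 477 to 498 and 394 to 436 CPM. There snb-1 rose from 157 ± 3.34 to 269 ± 11.2 CPM, and the other 7 fell. For 10 markers of oocytes and germ line the sum was 910.5 to 937 CPM in L4 and 10888 to 15512 CPM at day 10. For 8 embryo markers it was 14.4 to 17.4 and 131.8 to 146 CPM. Of these, end-1 and med-1 were too low to be tested and pes-10 had 0 counts in L4. The embryo sum was mostly pal-1 at both ages, with means of 15.8 CPM in L4 and 118 CPM at day 10. At day 10 the means of the other tested embryo markers were 0.659 CPM for ceh-51 to 9.69 CPM for pes-10. In RNA of whole animals, fewer cells of a type, less RNA per cell and a larger share of RNA from other cells cannot be told apart.

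The dhs genes moved in both directions and, under TMM scaling, more fell than rose, as among all features tested. All 29 passed the filter on low counts. At an adjusted p of 0.05 (edgeR's quasi-likelihood fit, Benjamini-Hochberg over all features), 10 were higher at day 10, which is 34.5% of the members against 40.5% of the 15956 features tested, and 16 were lower, 55.2% against 45% of the features. In all, 89.7% of the members changed, against 85.4% of the features, a share near the background. A change of at least 2-fold was called for 8 higher members, 27.6% against 29.1% of features, and for 11 lower members, 37.9% against 37.2%. These shares were close to those of the features. Day 10 and L4 libraries were without overlap for 24 members, 82.8%, against 87.6% of features. The median log2 fold change was −0.71 over the members and −0.16 over the features. In the authors' deposited table, 10 members were higher, 13 lower and 6 not called at an adjusted p of 0.05.

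**Figure D1:**
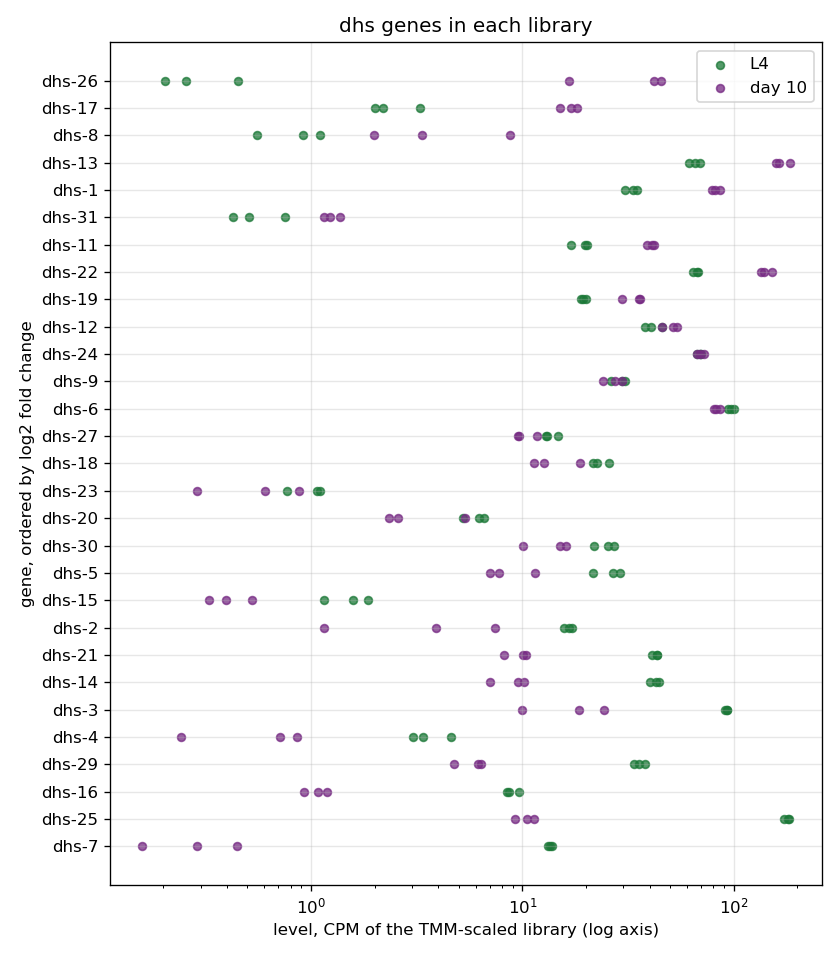
Level of each of the 29 dhs genes in each library, in CPM of the TMM-scaled library on a log axis, with 1 point per library (green, L4; purple, day 10). Genes are ordered by log2 fold change from dhs-26, highest at day 10 relative to L4, to dhs-7; the points of the ages are apart for 24 genes.

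A member tied to fat storage, dhs-3, fell. The DHS-3 protein coats the lipid droplets of the worm intestine and is used as a marker of them. The gene dhs-3 (WBGene00000967, chromosome I, 8212362 to 8218324, minus strand) held 92.8, 93.2 and 90.7 CPM in the L4 libraries and 24.2, 18.6 and 9.92 CPM at day 10. All day 10 libraries were far below all L4 libraries, and replicate 3 was the lowest of them. The fold change was 5.25 downward, a log2 value of −2.39 ± 0.37 (SE, n = 3 per age; edgeR's adjusted p = 4.1e-04), and the log2 value was −2.09 without day 10 replicate 3. All 10 intestine markers were lower at day 10 as well (median log2 change −2.47), and their part in the result was not tested. Of 9 other genes of lipid droplets and neutral fat, 6 rose, 2 fell and 1 was not called (median log2 change 0.86), where 40.5% of all features rose and 45% fell. The perilipin plin-1, a coat protein of the droplets, rose from 199.6 ± 2.21 to 506 ± 36.6 CPM (mean ± SD, n = 3), and the lipase atgl-1, which breaks down stored triglyceride, from 61.5 ± 5.56 to 181 ± 9.12 CPM. The genes that fell were dgat-2, an acyltransferase of triglyceride synthesis, and acs-22, a fatty acyl-CoA synthetase and transporter, the latter from 181 ± 3.51 to 53.9 ± 13.1 CPM. The level of abhd-5.2 was 18.6 ± 1.16 CPM in L4 and 21.7 ± 2.35 CPM at day 10 (edgeR's adjusted p = 0.102).

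The member of hormone synthesis, dhs-16, fell too. DHS-16 is a hydroxysteroid dehydrogenase in the synthesis of dafachronic acids, the bile-acid-like hormones that bind the nuclear receptor DAF-12 and steer larvae past the dauer stage. The gene dhs-16 (WBGene00000979, V, 5983745 to 5985509, plus strand) stood at 9.64, 8.45 and 8.65 CPM in L4 and at 1.07, 0.928 and 1.19 CPM at day 10. It was low at both ages and lower in every day 10 library, by 8.34-fold, a log2 fold change of −3.06 ± 0.09 (edgeR's adjusted p = 6.5e-07). Of 6 other genes of this pathway, 5 were tested and 4 of them fell, against 45% of all features. These were the cytochrome P450 daf-9, which makes the last step of the hormone, from 5.60 ± 0.510 to 0.404 ± 0.0377 CPM, the oxygenase daf-36, which makes the first, the sterol methyltransferase strm-1, and the receptor daf-12, from 40.6 ± 2.46 to 17.7 ± 0.714 CPM. The receptor's corepressor din-1 stood at 159 ± 5.31 and 159.2 ± 23.9 CPM (edgeR's adjusted p = 0.985), and hsd-1 was too low to be tested.

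Among members that act on sugars and carbonyls, 1 fell and 1 rose. DHS-21 is the worm form of the dicarbonyl and L-xylulose reductase of mammals. The gene dhs-21 (WBGene00000984, V, 12731767 to 12733645, minus strand) held 43.4, 40.8 and 43.3 CPM in L4 and 10.3, 10.0 and 8.20 CPM at day 10, 4.46-fold lower with little spread at either age (log2 fold change −2.16 ± 0.10, edgeR's adjusted p = 1.9e-07). DHS-13 corresponds to mammalian DHRS4, a carbonyl and retinal reductase. The gene dhs-13 (WBGene00000976, V, 1765311 to 1771734, minus strand) held 61.2, 69.4 and 65.6 CPM in L4 and 157.6, 164 and 184 CPM at day 10, and so rose 2.57-fold (log2 fold change 1.36 ± 0.08, edgeR's adjusted p = 3.1e-07).

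A small fall was called for dhs-6, the worm form of mammalian HSDL2, which carries a sterol carrier domain beside the dehydrogenase. The gene dhs-6 (WBGene00000970, II, 5617128 to 5619319, minus strand) held 97.1, 93.4 and 100.3 CPM in L4 and 85.7, 82.4 and 80.5 CPM at day 10. The libraries of the ages lay close together without overlap, and the log2 fold change was −0.23 ± 0.04 (edgeR's adjusted p = 0.00426). With DESeq2's size factors it was −0.06 and no longer called (adjusted p = 0.35), and it was not called in the authors' deposited table either, with an adjusted p of 0.82.

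The largest fall of an abundant member was that of dhs-25. The gene dhs-25 (WBGene00000988, X, 1486532 to 1489326, plus strand) held 172, 183 and 181 CPM in L4 and 11.4, 10.5 and 9.23 CPM at day 10. The ages were separated by more than an order of magnitude, and the fall was 17.2-fold (log2 fold change −4.11 ± 0.09, edgeR's adjusted p = 1.7e-09), with the lowest p among the members. A larger ratio was found for dhs-7 (WBGene00000971, II, 7206990 to 7208460, minus strand), at 13.8, 13.6 and 13.2 CPM in L4 and 0.159, 0.444 and 0.287 CPM at day 10. At day 10 it rested on 4, 11 and 7 counts, against 262 to 318 in L4, and was 44.8-fold lower (log2 fold change −5.48 ± 0.15, edgeR's adjusted p = 1.5e-07). All tested markers of body-wall muscle, intestine and sperm, 5 of 8 of the hypodermis and 7 of 8 of neurons were lower at day 10 too, and their part in the falls of the dhs genes was not tested.

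The members dhs-29, dhs-14 and dhs-4 fell by 4.75-fold to 6.18-fold. For dhs-29 (WBGene00000992, X, 7661891 to 7664919) the L4 libraries held 33.6, 37.8 and 35.4 CPM and the day 10 libraries 6.17, 4.76 and 6.36 CPM (edgeR's adjusted p = 1.9e-07). For dhs-14 (WBGene00000977, V, 2763981 to 2765200) the values were 44.4, 40.0 and 42.6 CPM in L4 and 9.51, 10.2 and 7.01 CPM at day 10 (edgeR's adjusted p = 7.1e-07). Both genes had no day 10 library near the L4 range. The scarce dhs-4 (WBGene00000968, I, 9647603 to 9649238) went from 3.04, 3.37 and 4.58 CPM to 0.716, 0.242 and 0.861 CPM (edgeR's adjusted p = 2.7e-04). The other members that fell were dhs-2, dhs-5, dhs-15, dhs-18, dhs-20, dhs-27 and dhs-30, by 1.32-fold for dhs-27 to 3.95-fold for dhs-2.

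The largest rise was that of dhs-26, which was almost absent from the larvae. The gene dhs-26 (WBGene00000989, X, 3360722 to 3362493, minus strand) held 4, 6 and 9 counts in the L4 libraries and 1132, 1044 and 407 at day 10, or 0.203, 0.256 and 0.453 CPM against 45.0, 42.1 and 16.7 CPM. Every day 10 library was far above every L4 library, while replicate 3 held less than the other two. The rise was 112.7-fold, a log2 fold change of 6.82 ± 0.47 (edgeR's adjusted p = 2.2e-05), or 7.17 without day 10 replicate 3. All 10 oocyte and germ line markers (median log2 change 4.59) and all 6 tested embryo markers rose as well. The oocyte and germ line sum was also lowest in day 10 replicate 3, at 10888 CPM against 15512 and 14809 CPM. So were the sums of intestine (846 against 1294 and 1261 CPM), hypodermis and embryo, while those of body-wall muscle, neurons and sperm were highest there. The embryo sum was mostly pal-1, the hypodermis sum mostly tbb-2 and the neuron sum mostly snb-1. In the body-wall muscle sum act-4 was the largest part at day 10. Against the other day 10 libraries, the 6 tested embryo markers lay at a median of 0.195 in replicate 3, on the scale of log2(CPM + 0.5). The medians there were −0.04 for hypodermis, −0.01 for body-wall muscle and 0.13 for neuron markers. The part of any of these cells in the result was not tested.

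Scarcer members rose by several fold. The gene dhs-17 (WBGene00000980, V, 6026329 to 6034814) held 2.18, 3.28 and 2.01 CPM in L4 and 18.2, 17.0 and 15.05 CPM at day 10, a rise of 6.65-fold with no overlap (edgeR's adjusted p = 2.3e-06). For dhs-8 (WBGene00000972, II, 14498026 to 14499755) the L4 libraries held 0.913, 0.555 and 1.11 CPM and the day 10 libraries 1.99, 3.35 and 8.78 CPM. Day 10 replicate 3 was far above the others, so that the log2 fold change of 2.46 ± 0.59 (edgeR's adjusted p = 0.00584) was 1.67 without it (adjusted p = 5.9e-04).

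Abundant members rose with little spread between libraries. For dhs-1 (WBGene00000965, I, 5278803 to 5281519) the values were 33.2, 30.5 and 34.7 CPM in L4 and 85.7, 81.2 and 79.1 CPM at day 10 (log2 fold change 1.32 ± 0.06, edgeR's adjusted p = 2.3e-07). For dhs-22 (WBGene00000985, V, 14420071 to 14421440) they were 64.0, 68.0 and 67.0 CPM in L4 and 151, 139 and 135 CPM at day 10 (1.09 ± 0.06, adjusted p = 3.2e-07). For dhs-11 (WBGene00000974, III, 10640836 to 10642865) they were 19.8, 20.2 and 16.9 CPM in L4 and 40.9, 38.9 and 41.8 CPM at day 10 (1.09 ± 0.08, adjusted p = 5.5e-06). In all 3 genes the lowest day 10 library was above the highest L4 library. The gene dhs-19 (WBGene00000982, V, 11489048 to 11490482) rose less, from 18.98, 20.0 and 19.3 CPM to 36.04, 35.6 and 29.7 CPM (0.80 ± 0.09, edgeR's adjusted p = 7.8e-05). The scarce dhs-31 rose 2.23-fold to 1.25 ± 0.111 CPM (edgeR's adjusted p = 0.00897), though not with upper-quartile factors (log2 fold change 0.71, adjusted p = 0.0713).

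The test found no change for dhs-24, dhs-9 and dhs-23. The gene dhs-24 held 69.3, 66.7 and 70.3 CPM in L4 and 72.0, 69.2 and 67.2 CPM at day 10, with the libraries of the ages mixed (log2 fold change 0.02 ± 0.04, edgeR's adjusted p = 0.805). The gene dhs-9 (WBGene00000973, III, 5364512 to 5368045) held 30.5, 29.6 and 26.1 CPM in L4 and 29.6, 23.9 and 27.4 CPM at day 10 (−0.09 ± 0.11, adjusted p = 0.443). The scarce dhs-23 stood at 0.980 ± 0.185 CPM in L4 and 0.589 ± 0.294 CPM at day 10 (−0.72 ± 0.26, adjusted p = 0.142). For dhs-12 (WBGene00000975, IV, 10142455 to 10146225), at 45.8, 40.5 and 38.1 CPM in L4 and 53.99, 51.4 and 45.6 CPM at day 10, a rise of 0.28 ± 0.11 was called (edgeR's adjusted p = 0.0216) although the highest L4 library lay just above the lowest day 10 library.

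These small changes depended on how the libraries were scaled, since the median log2 fold change of all features was −0.16 under TMM, −0.62 with upper-quartile factors and 0.00 with the size factors of DESeq2. With upper-quartile factors dhs-12 turned to −0.17 (adjusted p = 0.105), while dhs-24 at −0.44, dhs-9 at −0.54 and dhs-23 at −1.17 were called lower. With DESeq2's size factors dhs-24 was called higher at 0.18, and dhs-20 and dhs-27 lost their calls, at −0.65 and −0.24. The gene dhs-20 also lost its call when day 10 replicate 2 or 3 or any L4 replicate was left out, at −0.58 to −0.92. The gene dhs-27 lost it without day 10 replicate 1 or 2 or L4 replicate 2 or 3, at −0.33 to −0.44, and dhs-12 without day 10 replicate 2 or L4 replicate 2 or 3, at 0.21 to 0.29.

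**Figure D2:**
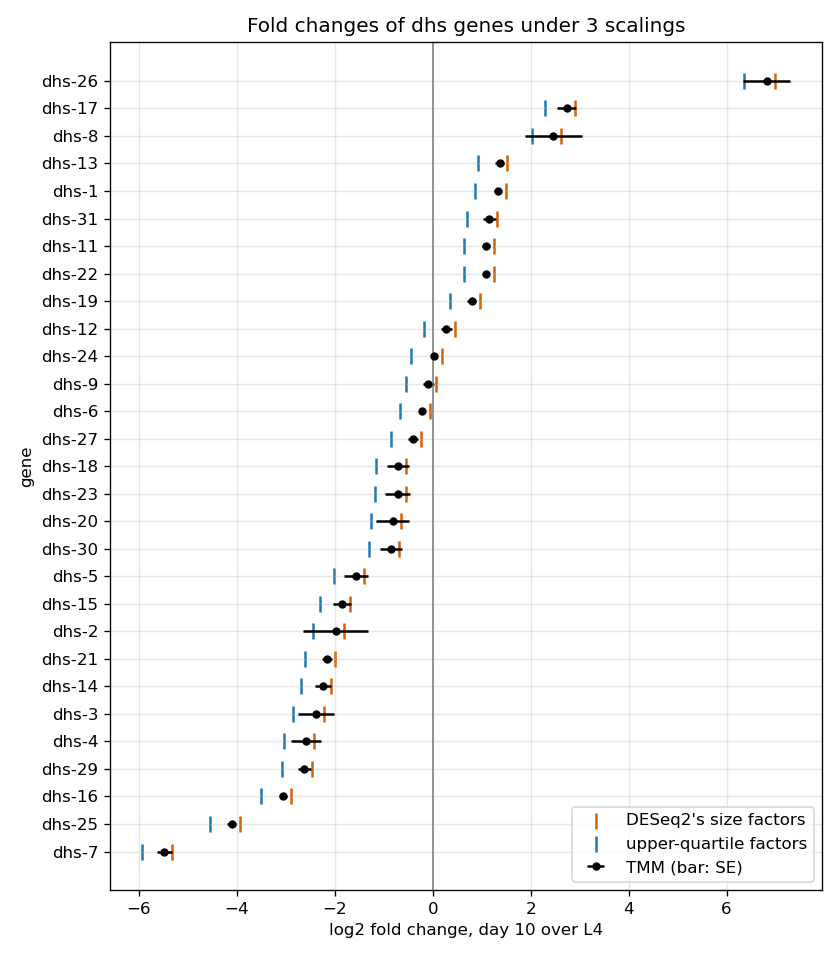
Log2 fold change of day 10 over L4 for each dhs gene under TMM scaling (black, bar SE from 3 libraries per age), DESeq2's size factors (orange) and upper-quartile factors (blue). The blue marks lie to the left of the black ones throughout, and the sign depends on the scaling for dhs-12, dhs-24 and dhs-9.

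The most abundant members differed between the ages. Levels of different genes are compared here as the authors' FPKM, which are reads divided by gene length and by the library total. The FPKM of the 29 genes summed to 866, 859.9 and 872 in the L4 libraries and to 757, 721 and 739 at day 10. The day 10 sums were all below the L4 sums, on a scale set by the library total alone. They were not computed with DESeq2's or upper-quartile factors, which moved the fold changes of the genes. In L4, dhs-25 was the most abundant member at 169.9 ± 4.10 FPKM (mean ± SD, n = 3) and made up 19.6% ± 0.458 of the sum. It was followed by dhs-3 at 97.7 ± 1.59, dhs-6 at 66.3 ± 3.15, dhs-22 at 57.5 ± 1.14 and dhs-13 at 49.7 ± 2.43 FPKM. The first 4 of these 5 were each clear of the next in every library, whereas dhs-13 could not be told from dhs-12 at 49.3 ± 5.08 FPKM, and dhs-12 overlapped dhs-21.

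At day 10 the order began with dhs-13 at 129.6 ± 15.5 and dhs-22 at 124 ± 4.99 FPKM, whose ranges overlapped. They were followed by dhs-1 at 66.9 ± 1.75 FPKM, clear of both neighbours, and by dhs-12, dhs-6 and dhs-11 at 60.3 ± 3.12, 57.2 ± 1.24 and 54.2 ± 3.76 FPKM, each overlapping the next. The share of dhs-25 was 1.34% ± 0.0829, and it stood in place 15 of 29 at 9.93 ± 0.714 FPKM. The gene dhs-26 moved the other way, from the last place at 0.260 ± 0.113 FPKM to place 9 at 29.6 ± 12.6 FPKM. The last place at day 10 was that of dhs-7, at 0.229 ± 0.108 FPKM. In L4, 20 members stood at 10 FPKM or more and 4 under 1 FPKM; at day 10 these numbers were 14 and 5.

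**Figure D3:**
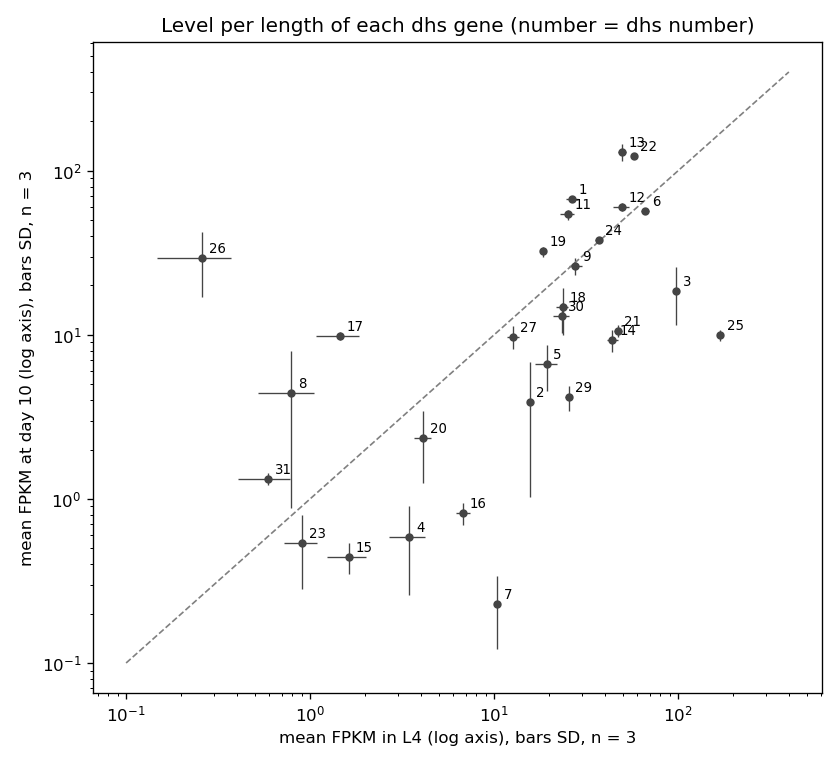
Mean FPKM of each dhs gene in L4 (horizontal) and at day 10 (vertical), both on log axes, with bars for the SD over 3 libraries and the number of each dhs gene beside its point. Points on the dashed line have equal values; dhs-26 lies far above it, and dhs-25 and dhs-7 far below.

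**Figure D4:**
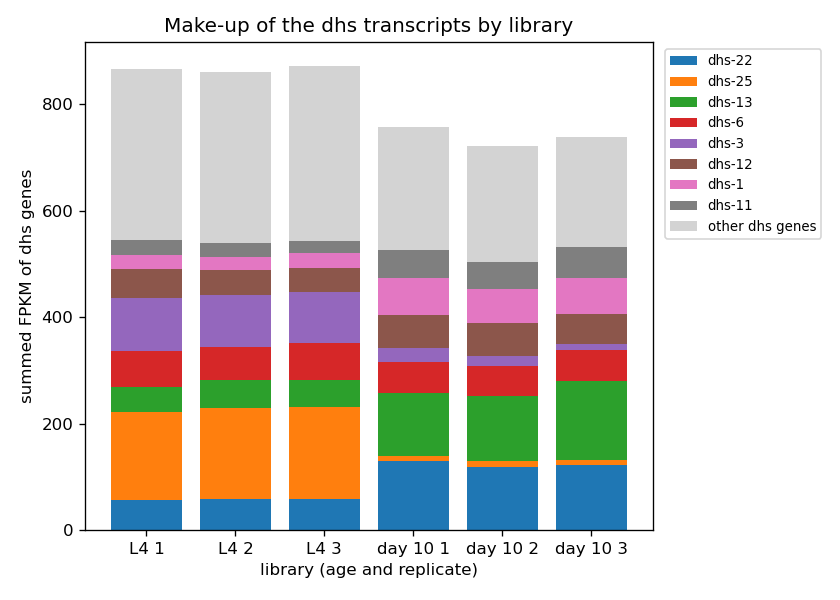
Summed FPKM of the 29 dhs genes in each of the 6 libraries, split into the 8 genes with the highest mean FPKM over all libraries and the other dhs genes in grey. The parts of dhs-25 and dhs-3 are large in L4 and small at day 10, and those of dhs-13, dhs-22, dhs-1 and dhs-11 are larger at day 10.

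The spread between libraries was wider at day 10 for most members. The coefficient of variation over 3 libraries was higher at day 10 than in L4 for 23 of 29 members, 79.3%, against 70.2% of the 15620 tested features with counts at both ages. Its median at day 10 and in L4 was 12.3% and 7.18% over the members and 15.5% and 7.44% over all tested features with counts at that age. The widest spreads at day 10 were those of dhs-8, at 76.3%, and dhs-2, at 75.4%, which were singled out after their values were seen. The gene dhs-2 (WBGene00000966, I, 5354181 to 5357029) held 15.7, 17.1 and 16.5 CPM in L4 and 7.40, 3.91 and 1.15 CPM at day 10. It was lower than in L4 in every day 10 library, with a log2 fold change of −1.98 ± 0.66 (edgeR's adjusted p = 0.0132), which was −2.68 without day 10 replicate 1 and −1.52 without replicate 3, and the call was lost without a filter on low counts (adjusted p = 0.060).

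Day 10 replicate 3 was the lowest of its age for 17 members and the highest for 9. The same shares over all features were not computed, so these counts are not a trait of the members. It was more than 2-fold below the mean of the other 2 libraries, on the scale of log2(CPM + 0.5), for dhs-2, dhs-26 and dhs-3, at −1.84, −1.36 and −1.06, and more than 2-fold above it for dhs-8, at 1.58. That is 10.3% of the members below and 3.45% above, against 2.09% and 1.69% of all tested features. In the same library the intestine markers lay at a median of −0.54 and the oocyte and germ line markers at −0.47 against the other two, while the sperm markers lay at 0.49; the part of these in the spread of the dhs genes was not tested. Without this library, 10 members were higher and 15 lower, the call of dhs-20 being lost.

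**Figure D5:**
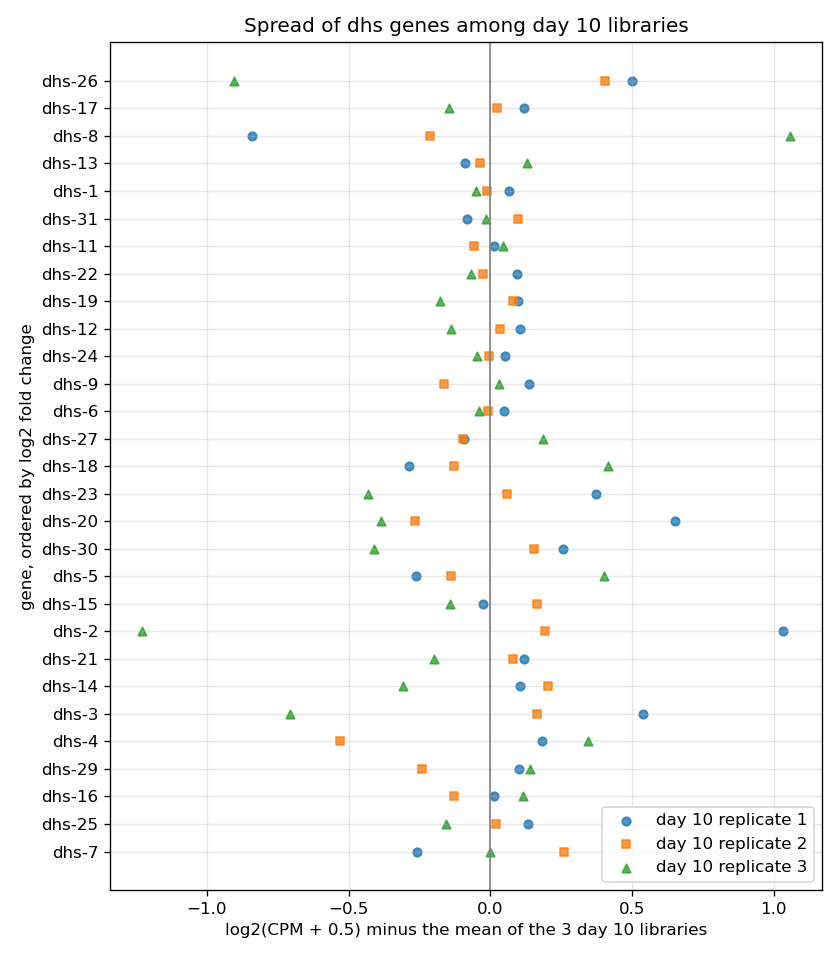
Deviation of each day 10 library from the mean of the 3 day 10 libraries, as log2(CPM + 0.5), for each dhs gene in the order of its log2 fold change. Replicate 3 (triangles) lies far to the left for dhs-2, dhs-26 and dhs-3 and far to the right for dhs-8, while most other genes lie close to 0.

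The dhs genes are spread over all 6 nuclear chromosomes, with 12 of the 29 on chromosome V and 5 on X. On V, 4 members were higher, 6 lower and 2 not called, where 34.9% of tested features of that chromosome were higher and 48.4% lower. On X, dhs-26 was higher and the other 4 were lower, where 25.8% of features were higher and 56.4% lower. The closest members were dhs-14 and dhs-15, which lie on the same strand of V with 3161 bases and 1 other coding gene between them. Both fell, dhs-14 to 8.91 ± 1.68 CPM and dhs-15 from 1.53 ± 0.357 to 0.417 ± 0.0996 CPM, by log2 fold changes of −2.25 and −1.85. On X, dhs-26 and dhs-27 lie 50383 bases apart on the same strand and moved in opposite directions, although the fall of dhs-27 was small, at −0.40 ± 0.11 (edgeR's adjusted p = 0.0237).

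Members have 3 to 11 exons in their transcript with the most exons. Exons of 15 members overlap those of another annotated gene, and since no source states that counting used strand, reads from such stretches cannot be assigned with certainty. The overlap was 0.19% to 10.1% of the exon length for 14 of these, and for dhs-26 it was 54 bases with ZK816.1. For dhs-12 it was 390 bases, 17.97%, with the glutathione transferase gst-4 and pseudogenes. The length implied by the authors' FPKM for dhs-12, 836 bases, was far below the 2170 bases of its annotated exons, so its FPKM rests on a shorter gene model.

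Most of the tested short-chain dehydrogenases under other names fell. Of 18 listed, 13 were tested, 12 fell and only sqv-1 rose, and the median log2 change was −0.97; the background shares are those given above, 40.5% higher and 45% lower. The gene let-767, which reduces steroids and long-chain ketoacyl groups, fell from 306 ± 3.72 to 113 ± 3.06 CPM. The dienoyl-CoA reductase homologues decr-1.2 and decr-1.3 fell by 4.34 and 5.63 on the log2 scale, to under 1 CPM, and decr-1.1 by 0.97. Among genes of nucleotide sugars, the GDP-mannose dehydratase bre-1 fell from 70.9 ± 3.20 to 11.7 ± 1.07 CPM, whereas sqv-1, which makes UDP-xylose for the linker of glycosaminoglycans, rose from 29.2 ± 2.36 to 154 ± 18.9 CPM, a log2 fold change of 2.40 ± 0.12 (edgeR's adjusted p = 7.4e-08).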

How the data were processed

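Whole worms at day 10 and at the L4 stage, with 3 libraries each, were sequenced as TruSeq RNA libraries, per the labels' protocols. The deposited read counts per gene come from a workflow with CASAVA 1.8, HISAT2 and HTSeq, per the submitters' processing notes; build, annotation and strand setting are not given in the sources used here. The deposited FPKM values equal counts over 1 length per feature and the library total (relative difference up to 1.4e-07). The authors' group means, a signal of scaled counts, and their p-values were only set beside the results.

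Counts were tested with edgeR 4.0.16 (R 4.3.3): TMM, default low-count filter, robust quasi-likelihood fit, adjustment over all features tested. SEs come from the spread of log2(CPM + 0.5), whereas the fold changes are those of edgeR's fit. For members near or under 1 CPM at an age, such as dhs-7, dhs-26, dhs-8 and dhs-23, the added 0.5 narrows that spread. Their SEs therefore understate the error of the fold change. Genes given library by library were the 8 with the highest mean FPKM, the 8 largest changes each way (adjusted p under 0.05, mean of at least 1 CPM, ages apart) and 8 with known or inferred roles, 19 in all; dhs-24, which was not called, and dhs-2, chosen after its values were seen, are given likewise. Members and lists were chosen with earlier results of these data known. Coordinates come from WBcel235; the authors' build may differ. The fit was tested on simulated counts for day 10 against L4 (15876 genes). It recovered 44% of 1.5-fold, 94% of 2-fold and 100% of 4-fold and 8-fold changes, with 10 false calls. The simulation changed 50 genes per fold, as many up as down and none of them scarce, with the same dispersion for every gene. In the data 85.4% of features were called and some members were scarce, so these rates cannot be carried over to them. Alternatives were other scalings, filters and tests (DESeq2 1.42.0, limma 3.58.1), a replicate block and each library left out. The depths given with the results limit precision for members under about 1 CPM.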

Additional observations from a re-analysis of the deposited data

How the results depend on the processing

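Of 29 members, 20 kept their direction and their side of the threshold under all 15 alternatives that gave them a value; the others were dhs-2, dhs-6, dhs-9, dhs-12, dhs-20, dhs-23, dhs-24, dhs-27 and dhs-31. The count of higher members was 8 to 11 and that of lower members 13 to 19 over all alternatives, and 9 to 10 and 14 to 15 when 1 library was left out. The median log2 fold change of the members, −0.71, was −0.55 with DESeq2's size factors, −0.55 with DESeq2 and −1.15 with upper-quartile factors, and −0.67 to −0.48 when 1 library was left out; these factors moved the median of all features as well. Turned signs were those of dhs-9, at 0.0718 with DESeq2's size factors, 0.0731 with DESeq2 and 0.0117 without day 10 replicate 2, of dhs-12, at −0.17 with upper-quartile factors, and of dhs-24, at −0.44 with upper-quartile factors, −0.017 without a filter, −0.00504 with at least 1 CPM in 3 libraries and −0.0172 without L4 replicate 2, the lowest value with 1 library left out, where the highest was 0.0622. Apart from the scaling itself, the cause was not tested. The titles number the replicates alike at both ages. Libraries with the same number deviated together from their group means only very weakly (correlations of 0.019 to 0.0204 over genes, each the highest for its library). For libraries with different numbers the correlations were −0.0156 to −0.00504. With the replicate number as a block, 10 members were higher and 15 lower, the median was −0.73, and dhs-20 (adjusted p = 0.0501) lost its call. Summed FPKM of 866 and 739 became 871 and 736 with TMM-scaled counts per kilobase. Members under 1 CPM at day 10, such as dhs-7 and dhs-15, rested on at most 13 counts a library there, except dhs-4 and dhs-23 with up to 22.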
